A study of Mus musculus with 6 samples.

Results

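The 6 mouse genes St8sia1 to St8sia6 encode enzymes that attach a sialic acid to another sialic acid, and their levels were followed on 6 Agilent 1-colour arrays of mouse embryonic fibroblasts (MEFs). Their members were found by gene name among the non-control spots, which gave 14 probes of the 41174 on the array, for 6 of 27616 gene names. The family was chosen by the processed signal and detection marks of St8sia6, bright in Gadd45a cells and dim in Flag cells, so the St8sia6 values in that contrast are a description and carry no test. Every probe is described, whether or not it was bright enough to be tested.

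All cells were MEFs infected with a factor set that the labels abbreviate SKO without spelling it out, and all were labelled day 8 and cultured for 6 days after infection in serum-containing medium with leukaemia inhibitory factor (Lif). They differed in what was added to SKO. The Gadd45a group (labelled Ga) received Gadd45a, a small nuclear stress protein, the G39A group received G39A, described as a negative mutant of Gadd45a, and the Flag group is the control. Each group has 2 arrays, numbered as replicate 1 and replicate 2, and the labels do not say whether the numbers stand for separate cultures. Neither the viral vector and promoter nor the share of infected cells is given in the sources used here, and the RNA is from the whole culture, so fewer cells of a type and less RNA per cell cannot be told apart.

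On the 6 arrays, 57.0% to 62.9% of spots were well above background and none was saturated. The Gadd45a and Flag replicate 1 arrays shared a slide, all 3 replicate 2 arrays shared another, and G39A replicate 1 was the sole array of its slide. All 12 fibroblast markers checked (Col1a1, Vim, Fn1 and others) were measured, and 11 or 12 of them were well above background on each array. Arrays of a replicate number resembled each other more than arrays of a group. Pou5f1, a pluripotency factor, had signals of 5153, 6363 and 3851 on the Gadd45a, G39A and Flag replicate 1 arrays, but between 3.57 and 4.40 on the replicate 2 arrays, where it was not well above background. The single Gadd45a probe, which starts at base 878 of its transcript, read 560 and 1870 in Gadd45a cells, 1395 and 2147 in G39A cells and 1017 and 2309 in Flag cells. It was thus not brighter in the Gadd45a cells, and whether the introduced sequence contains the probe's stretch is not given in the sources used here.

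Sialic acids cap the sugar chains of glycoproteins and glycolipids at the cell surface. St8sia1 makes the ganglioside GD3 from GM3 and St8sia5 extends more complex gangliosides, the sialic acid glycolipids that are abundant in brain. St8sia2 and St8sia4 are the polysialyltransferases, which build long polysialic acid chains mainly on the neural cell adhesion molecule Ncam1 and thereby loosen cell contacts in the developing nervous system. St8sia3 builds short chains and is known mainly from brain, and St8sia6 adds disialic acid chiefly to O-linked sugars of glycoproteins.

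The probes differ in where they lie, which matters because probes of a gene did not behave alike. The sequences below are the St8sia6 probe on which the choice of the family rests, the 2 St8sia6 probes that did not share its pattern, the St8sia1 probe that was bright on a single array, and the brightest probes of the polysialyltransferases. All are mm9 positions on the minus strand as the files give them, written 5′ to 3′, and the probe names give the base of the transcript at which the probe starts. No annotation of exons or untranslated regions on mm9 was used here. Only the first 30 bases are shown for probes further down the transcript, while the St8sia6 base 901 and St8sia1 base 1104 probes are shown whole at 60 bases.
St8sia6 base 901 (chr2:13578761-13578820): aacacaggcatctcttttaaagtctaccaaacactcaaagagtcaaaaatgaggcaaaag
St8sia6 base 2721 (chr2:13576941-13577000): ctgttcatccatcgattttcccaaaaagta
St8sia6 base 4822 (chr2:13575128-13575187): tatgctattaaattccagttcattgatagc
St8sia1 base 1104 (chr6:142825176-142825235): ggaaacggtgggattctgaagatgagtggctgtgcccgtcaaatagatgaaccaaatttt
St8sia2 base 4909 (chr7:81084412-81084471): taagatctcctgacccacagaaatgtgccc
St8sia4 base 5281 (chr1:97484331-97484390): aaggaaggatgaagcttactctgtaggttc

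The St8sia6 probes at base 901 and base 2721 start 1820 bases apart both in the transcript and on the genome, so the stretch between them holds no intron. The base 2721 and base 4822 probes start 1813 bases apart on the genome and 2101 apart by their transcript numbers, which come from different transcript records. None of the 14 probes shares an identical run of 15 bases with a probe of another gene, and only 2 probes of St8sia3 overlap each other.

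The upstream St8sia6 probe, at base 901, was the one that separated the groups. Its processed signals were 169 and 94.5 in Gadd45a cells (replicates 1 and 2), 8.01 and 21.8 in G39A cells, and 3.98 and 3.49 in Flag cells. The error that the scanner software assigns to those spots was 18.3 and 10.3 in Gadd45a, 4.52 and 4.86 in G39A, and 3.96 and 3.47 in Flag. Both Flag signals are substitute values that stand in for dim spots. Both Gadd45a arrays and G39A replicate 2 were well above background, whereas G39A replicate 1 and both Flag arrays were not, and the 3 groups did not overlap. Of all genes tested, 5.02% were higher in Gadd45a than in Flag, 4.95% higher in G39A than in Flag and 6.52% higher in Gadd45a than in G39A without overlap, and the first of these contrasts chose the family. Because the Flag level is only a bound, the Gadd45a cells were at least 7.03-fold higher than the Flag cells, at least 8.37-fold within replicate 1 and at least 5.90-fold within replicate 2. The bound sets the Gadd45a mean against, for each Flag array, the lowest signal that any probe well above background had there. That lowest signal is not a strict upper limit for a dim spot. On G39A replicate 1 it was 21.5, and St8sia4 at base 4385 read 24.1 there without being well above background. Folds given as at least a value hold against this limit. On the log2 scale of signals centred on each array's 75th percentile, the processed signals differed by 5.10. The difference was 5.35 in replicate 1 and 4.86 in replicate 2, with the Flag substitutes taken as values.

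At this probe the G39A cells lay between the others, with 1 of their arrays detected. On G39A replicate 2 the base 901 probe was just bright enough to count, at 21.8 where the lowest signal well above background on that array was 21.2. Within replicate 2 it was at least 1.30-fold higher in G39A than in Flag, and within replicate 1 neither array was well above background. Gadd45a cells were at least 8.66-fold higher than G39A cells in replicate 1 and 4.52-fold higher in replicate 2. Over both replicates the log2 difference was 1.74 between G39A and Flag, with the Flag substitutes taken as values, and 3.36 between Gadd45a and G39A. With normexp, another background correction, these moved to 0.32 and 1.37. No test is given for these comparisons, which share the Flag or the Gadd45a arrays with the contrast that chose the family and rest partly on dim signals.

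The other 2 St8sia6 probes did not show higher signal in Gadd45a cells. The base 2721 probe read 85.1 and 5.26 in Gadd45a cells, 179 and 5.39 in G39A cells, and 166 and 4.29 in Flag cells. The base 4822 probe read 55.0 and 4.53 in Gadd45a cells, 63.8 and 9.34 in G39A cells, and 59.3 and 3.74 in Flag cells. Both probes were well above background on all 3 replicate 1 arrays and on no replicate 2 array, in all 3 groups. Gadd45a replicate 1, the array on which the base 901 probe was brightest, had the lowest replicate 1 signal at each of them. The detection pattern was seen for 3 of the 14 member probes, beside 714 of 41174 probes (1.73%) on the whole array. Over both replicates the log2 difference between Gadd45a and Flag cells was -0.32 at base 2721 and 0.10 at base 4822. These take in replicate 2, where the Gadd45a and Flag values of both probes are substitutes for dim spots. Within replicate 1, where both probes were bright, the measured difference was -1.02 at base 2721 and -0.17 at base 4822.

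**Figure D1:**
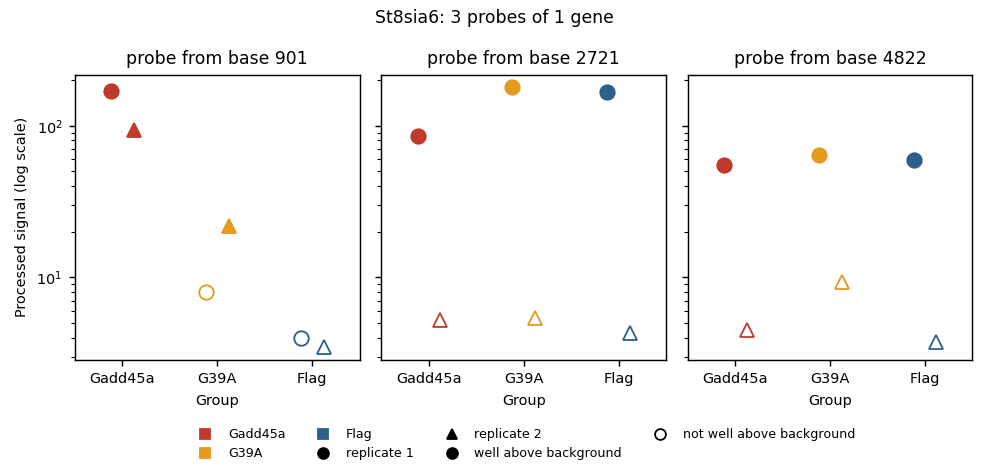
Processed signal (log axis) of the 3 St8sia6 probes on each of the 6 arrays, with Gadd45a, G39A and Flag from left to right and filled points well above background. The base 901 probe is at 169 and 94.5 in Gadd45a cells, whereas the base 2721 and base 4822 probes part the replicate numbers in all 3 groups.

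Over the 6 arrays the base 901 probe followed neither of the others, with a Pearson correlation of -0.14 with base 2721 and -0.03 with base 4822, while those 2 probes correlated at 0.97 with each other. These are descriptions over 6 arrays that share the difference between replicate numbers. Of 41174 probes, 13 (0.0316%) were well above background on both Gadd45a arrays and neither Flag array. The opposite pattern was seen for 420 (1.02%). The family was chosen because St8sia6 had the first pattern, so these counts are a description and carry no test. The lowest signal well above background was 35.1 for Gadd45a replicate 1 and 20.4 for Gadd45a replicate 2. For Flag these limits were lower, at 19.3 and 17.1. The part of the limits in the difference between the counts was not tested. The 13 probes name 9 genes beside identifiers, of which 5 have more than 1 probe, and all 5 of those have a probe that lacks the pattern. Whether the base 901 signal comes from a particular St8sia6 transcript was not tested. The summed signal of the epithelial markers checked ran in the same order of groups as this probe. It was 6.91 and 3.56 in Gadd45a cells, 6.31 and 2.69 in G39A cells, and 6.26 and 2.10 in Flag cells. Krt18 made up 60.8% of the sum on Gadd45a replicate 2, and not every marker kept that order. Krt19, for example, read 1058 and 870 in Gadd45a cells, 1029 and 1030 in G39A cells, and 1055 and 860 in Flag cells. Cdh1 and Epcam, bright on the replicate 1 arrays alone, were not tested and did not keep it either. There Cdh1 read 366 in Gadd45a, 482 in G39A and 360 in Flag cells. Epcam read 559, 715 and 583, so both were highest in G39A cells. Of the 5 epithelial markers tested, 3 were higher in Gadd45a than in Flag cells in both replicate numbers and 0 were lower in both. Of all genes tested, 21.7% were higher and 34.5% lower in that way. The median log2 difference of the 5 markers was 0.36, and none passed the test. The part of the epithelial markers in the base 901 signal was not tested.

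The polysialyltransferases St8sia2 and St8sia4 each had a probe well above background on all 6 arrays. St8sia2, with 1 probe, read 247 and 54.5 in Gadd45a cells, 281 and 58.2 in G39A cells, and 203 and 47.9 in Flag cells. Its spots carried scanner errors between 6.41 and 28.7. Within each replicate number the Flag array was the lowest and the G39A array the highest, but the replicate numbers were further apart than any of the groups, so the groups overlapped.

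St8sia2 was 1.17-fold higher in Gadd45a than in Flag cells in replicate 1 and 1.22-fold higher in replicate 2, a mean log2 difference of 0.26. In G39A cells it was 1.20-fold and 1.25-fold higher than in Flag cells, a log2 difference of 0.29 ± 1.19 (SE, limma adjusted p = 1.0). With a block for the replicate number its SE narrowed to 0.09 and the adjusted p was 0.99, so the difference did not pass either way. Gadd45a and G39A cells differed by -0.03 ± 1.19 (SE, limma adjusted p = 1.0), or ± 0.09 with the block (adjusted p = 0.92).

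St8sia4 has 2 probes, which start 896 bases apart in the transcript and on the genome. The base 5281 probe read 291 and 121 in Gadd45a cells, 311 and 90.4 in G39A cells, and 274 and 109 in Flag cells, well above background on every array. In replicate 1 the G39A array had the highest processed signal, but after scaling to the 75th percentile Gadd45a was highest and G39A lowest in both replicate numbers, by differences smaller than that between the numbers. The log2 difference was 0.14 between Gadd45a and Flag cells, with 0.03 in replicate 1 and 0.26 in replicate 2. It was -0.12 ± 0.79 between G39A and Flag cells and 0.27 ± 0.79 between Gadd45a and G39A cells (SE, limma adjusted p = 1.0 for each).

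The base 4385 probe of St8sia4 was far dimmer, at 32.5 and 7.92 in Gadd45a cells, 24.1 and 5.39 in G39A cells, and 24.8 and 8.43 in Flag cells. It was well above background on Flag replicate 1 alone. Gadd45a replicate 1 had the higher signal but also the highest limit, since the lowest signal well above background was 35.1 on that array and 19.3 on Flag replicate 1.

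**Figure D2:**
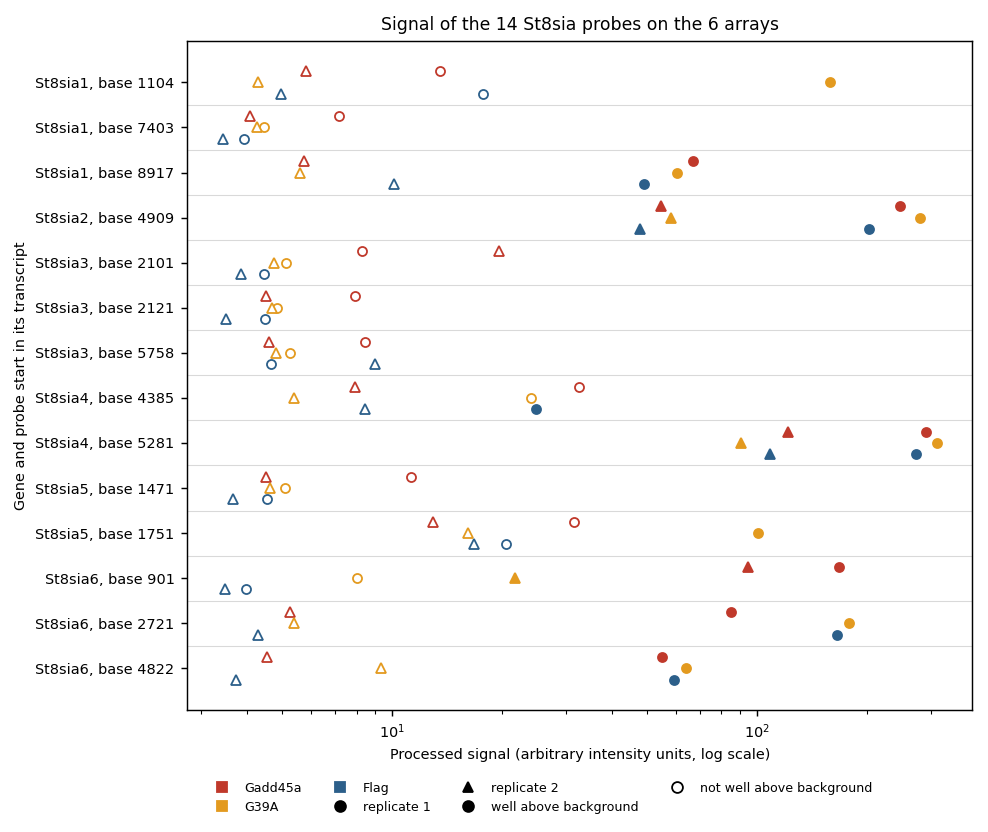
Processed signal (log axis) of all 14 probes of the 6 genes on each of the 6 arrays, with Gadd45a, G39A and Flag in that order and filled points well above background. St8sia2 and the St8sia4 base 5281 probe are bright on all 6 arrays, and the St8sia3 probes on none.

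St8sia1, the GD3 synthase, was read differently by its 3 probes. At base 8917 it was well above background on the replicate 1 arrays only, with 66.8 and 5.73 in Gadd45a cells, 60.5 and 5.61 in G39A cells, and 49.2 and 10.1 in Flag cells. At base 7403, 1514 bases upstream on the genome and in the transcript, all 6 signals lay between 3.44 and 7.15 and none was well above background. Thus probes of the same stretch of transcript were bright and dim on the same arrays.

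The base 1104 probe of St8sia1 was bright on a single array, with 13.5 and 5.82 in Gadd45a cells, 159 and 4.30 in G39A cells, and 17.8 and 4.96 in Flag cells. Within replicate 1, G39A was at least 7.13-fold higher than Flag, and Gadd45a was at least 4.09-fold lower than G39A. St8sia5, a ganglioside sialyltransferase, showed the same at base 1751, where it read 31.5 and 13.0 in Gadd45a cells, 101 and 16.2 in G39A cells, and 20.5 and 16.8 in Flag cells. Here G39A replicate 1 was 4.26-fold above the dim signal of Flag replicate 1, and Gadd45a replicate 1 at least 2.59-fold below G39A replicate 1. The 4.26 is a plain ratio, as that Flag signal lay over its array's lowest signal well above background, 19.3. In both cases G39A replicate 2 was not well above background. G39A replicate 1, which had a slide to itself, held 718 probes (1.74%) that were well above background on that array alone, against 139 to 657 on the other arrays, and the part of the slide in these values was not tested.

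The remaining 4 probes were dim everywhere. The 3 St8sia3 probes lay between 3.51 and 19.7 and the St8sia5 probe at base 1471 between 3.66 and 11.3, and none was well above background on any array. St8sia1 at base 7403 completes the 5 of 14 member probes dim on all arrays, beside 12362 of 41174 probes (30.02%) on the whole array. All 5 read higher on Gadd45a replicate 1 (7.15 to 11.3) than on the other replicate 1 arrays (3.93 to 5.25), and Gadd45a replicate 1 was the array with the highest limit of detection. Differences between such dim signals have no fold change.

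Of the 6 genes, St8sia2, St8sia4 and St8sia6 entered the tests between groups, each through 1 probe. St8sia6 entered only through its base 901 probe, which passed the filter because both Gadd45a arrays were bright, so its outcome is not read as a test. Neither St8sia2 nor St8sia4 passed in the G39A against Flag or the Gadd45a against G39A comparison, where 0 of 15650 genes (0%) passed without or with the replicate block. At an unadjusted p under 0.05, 86 genes (0.55%) and 115 genes (0.735%) were counted without the block, and 454 (2.9%) and 1402 (8.96%) with it. In Gadd45a against Flag, the contrast that chose the family, 0 genes (0%) passed without or with the block, and 102 (0.652%) and 1362 (8.7%) had an unadjusted p under 0.05. With 2 arrays in a group an exact permutation test cannot go below p = 0.333.

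Apart from the base 901 probe of St8sia6, the brighter member probes differed far more between the replicate numbers than between the groups. Replicate 2 was set against replicate 1 with the group as a term, over 24691 probes bright on all 3 arrays of at least 1 replicate number, of which 6340 (25.7%) were lower and 7586 (30.7%) higher in replicate 2. St8sia2 and St8sia4 at base 5281, bright on all 6 arrays, were both lower in replicate 2. St8sia1 at base 8917 and St8sia6 at bases 2721 and 4822 passed the filter only through their replicate 1 arrays and could hardly come out otherwise than lower, so they are described with no test. The base 901 probe of St8sia6 did not enter, having differences of -0.67 in Gadd45a, 1.70 in G39A and -0.18 in Flag.

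St8sia2 fell by 2.03 ± 0.08 on the log2 scale in replicate 2 (SE, n = 3 pairs, limma adjusted p = 1.09e-04), with differences of -2.01 in Gadd45a, -2.01 in G39A and -2.07 in Flag cells. St8sia4 at base 5281 fell by 1.31 ± 0.11 (SE, limma adjusted p = 9.56e-04), with -1.09, -1.53 and -1.32 in Gadd45a, G39A and Flag cells. For these both replicate numbers were well above background, and St8sia2 was 4.09-fold and St8sia4 2.49-fold lower in replicate 2. Each pair comes from a different group, so the SEs and p-values measure how alike the groups were in this difference. How it would vary among further replicates is not measured.

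The other 3 were dim in replicate 2, so that their ratios are bounds. St8sia6 was at least 6.31-fold lower in replicate 2 at base 2721 and at least 2.74-fold lower at base 4822. St8sia1 at base 8917 was at least 2.70-fold lower.

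**Figure D3:**
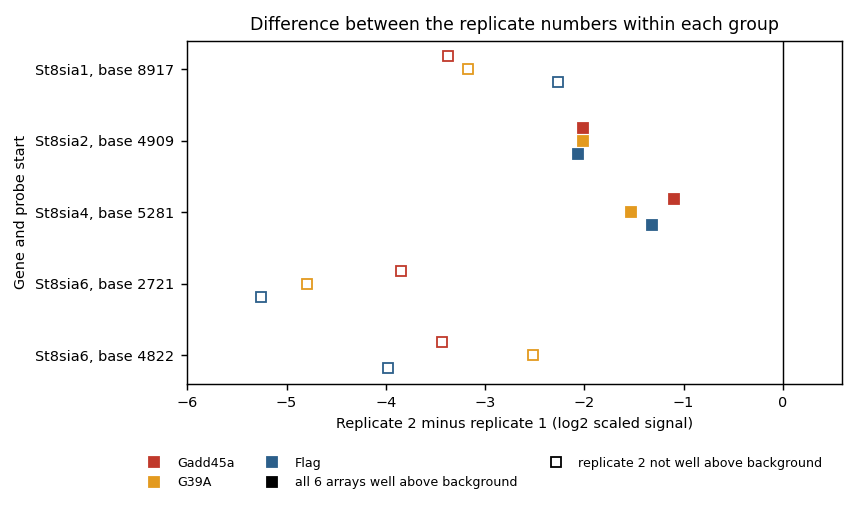
Replicate 2 minus replicate 1 in log2 scaled signal for the 5 member probes bright on all replicate 1 arrays, by group (Gadd45a above G39A above Flag), with open squares where replicate 2 was not well above background. All 15 differences are below 0, but the 3 probes with open squares were picked through their replicate 1 arrays and could hardly come out otherwise. The 3 groups of St8sia2 lie within -2.07 and -2.01.

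Markers of other cells also parted the replicate numbers. Those counted below as tested also passed the filter of the group comparisons, which leaves out markers bright in only 1 replicate number. The summed signal of 14 neural markers (Tubb3, Map2, Stmn2 and others), each relative to its array's 75th percentile, was 3.46 to 3.72 on the replicate 2 arrays and 13.7 to 15.5 on the replicate 1 arrays, with 10 to 12 of the markers well above background on each array. Stmn2 alone made up 42.7% to 52.8% of the replicate 1 sums. Of the 11 neural markers tested, 8 were lower and 2 higher in replicate 2, and 1 did not pass. The sum of the 12 fibroblast markers was 1131 to 1169 in replicate 2 and 707 to 805 in replicate 1, with 8 of 12 higher and none lower. The sum of 8 pluripotency markers was 0.305 to 0.330 in replicate 2 and 4.99 to 6.84 in replicate 1, where Pou5f1 alone made up 88.9% to 93.1% of it. Of that list only Dppa5a passed the filter of the group comparisons, and it did not pass the test between replicate numbers. Pou5f1 and Zfp42, bright on the replicate 1 arrays alone, could hardly come out otherwise than lower in replicate 2 and were not counted.

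The 12 macrophage and leukocyte markers summed to 6.97 to 11.1 in replicate 2 and 2.57 to 2.74 in replicate 1. Lyz2 made up 72.2% to 80.0% of the replicate 2 sums. Of 8 markers counted, 5 were higher in replicate 2, 2 (Cd68 and Itgam) were lower and 1 did not pass. Adgre1, bright on the replicate 2 arrays alone, was not counted. The 8 epithelial markers summed to 2.10 to 3.56 in replicate 2 and 6.26 to 6.91 in replicate 1. Of 5 counted, 3 were lower in replicate 2 and the other 2 were not past the threshold. Cdh1 and Epcam, bright on the replicate 1 arrays alone, were not counted. The part of other cells in the member signals was not tested. No slide held arrays of both replicate numbers, so a difference between slides and one between replicate numbers cannot be told apart. This holds also for the G39A pair, whose replicate 1 array had its own slide.

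Among the other genes of sialic acid metabolism, none passed in any of the 3 comparisons, with or without the replicate block. Of 14 other sialyltransferases, which add sialic acid to galactose or N-acetylgalactosamine, 11 were tested and their median log2 difference between Gadd45a and Flag cells was -0.12, beside -0.03 over all genes tested. Of these, 2 were higher and 6 lower within both replicate numbers, while 21.7% of all genes were higher and 34.5% lower in that way. St6galnac3 had the largest difference, with signals of 73.2 and 31.3 in Gadd45a cells, 116 and 50.4 in G39A cells, and 113 and 74.1 in Flag cells, a log2 difference of -0.91 ± 0.54 (SE, limma adjusted p = 1.0, with the block 0.40). St6galnac2 had -0.49, St6galnac6 -0.38 and St3gal4 -0.28, each below 0 in both replicate numbers.

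The supply of activated sialic acid was tested through 7 of 8 genes, with a median of -0.01. Gne, the enzyme that starts sialic acid synthesis, had a difference of -0.20 between Gadd45a and Flag cells, and Nanp, which removes the phosphate from the sialic acid precursor, had -0.30. Cmas, which activates sialic acid with CMP, had 0.09 and moved in opposite directions in the 2 replicate numbers. Of the sialidases, which remove sialic acid, 3 of 4 were tested and the lysosomal Neu1 had -0.09, Neu2 0.12 and Neu3 0.16.

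Ganglioside synthesis was tested through 9 of 10 genes, with a median of -0.01. St3gal5, which makes GM3, the substrate of St8sia1, read 4704 and 4401 in Gadd45a cells, 5402 and 4338 in G39A cells, and 4406 and 4875 in Flag cells, a difference of -0.01 between Gadd45a and Flag. Ugcg, the first enzyme of glucosylceramide-based lipids, had 0.11 and B4galnt1, which extends GM3 to GM2, had 0.13. All 8 ganglioside breakdown genes were tested, with a median of -0.05, and Gm2a, which presents the ganglioside GM2 for degradation, had -0.18 and Hexa, a lysosomal enzyme that degrades it, -0.15.

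Of 6 proteins known to carry polysialic acid, 5 were tested. Ncam1, the main carrier, was very bright at 27576 and 28263 in Gadd45a cells, 25964 and 22689 in G39A cells, and 24175 and 26061 in Flag cells. Its log2 difference between Gadd45a and Flag cells was 0.17 ± 0.17 (SE, limma adjusted p = 1.0), and it was above 0 in both replicate numbers. Cadm1, a cell adhesion molecule, had -0.60 and Cd36 -0.29, each below 0 in both replicate numbers. Of 8 Siglec genes, which encode receptors for sialic acid, only Mag and Siglecg were tested, with 0.0045 and 0.15.

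**Figure D4:**
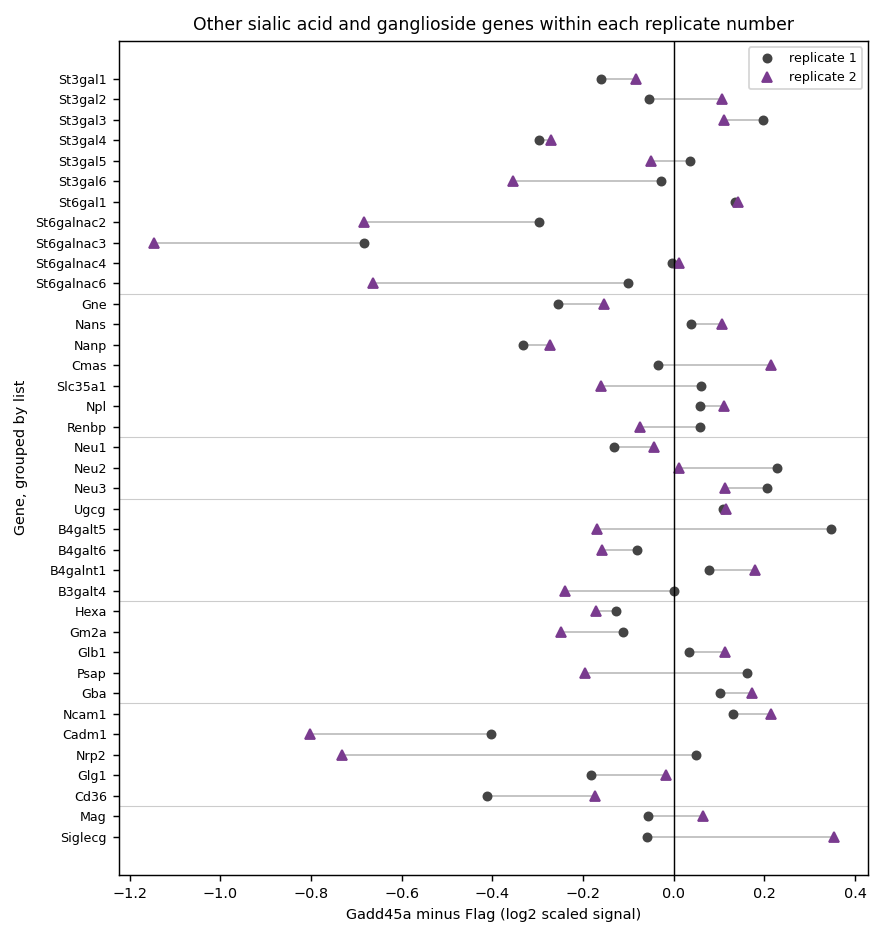
Log2 difference between Gadd45a and Flag cells for the tested genes of the sialic acid lists (1 not shown), each plotted within replicate 1 and within replicate 2. St6galnac3 lies furthest below 0, and no gene passed the test.

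The sialyltransferases outside the family did not all share the lower replicate 2 signal of St8sia2 and St8sia4. Of the 11 that were also tested between groups, 5 were lower in replicate 2, 4 were higher and 2 did not pass. St6gal2, bright on the replicate 1 arrays alone, was not counted. St3gal6 differed by -3.79, St6galnac4 by -2.42 and St6gal1 by -2.08 on the log2 scale (replicate 2 minus replicate 1), whereas St6galnac2 differed by 2.30 and St3gal1 by 1.27. Ncam1 differed by 0.13 ± 0.08 (SE, limma adjusted p = 0.25) between the replicate numbers, while the polysialyltransferases St8sia2 and St8sia4 were lower in replicate 2. The carriers Cadm1 and Cd36 differed by -1.99 and -2.87 and Ugcg by 1.90, and all 3 passed the test.

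The genes whose pattern was most like the St8sia6 base 901 probe over the 6 arrays were Rhbdd2 (Pearson r = 0.97), Pemt (0.95), Fosl1 (0.94), Fam183b (0.94) and Dcaf15 (0.94), as a description over arrays that share slides. Their spread was smaller than that of St8sia6: Fosl1, a subunit of the AP-1 transcription factor, read 533 and 483 in Gadd45a cells, 436 and 363 in G39A cells, and 363 and 320 in Flag cells. Fam183b was well above background on the Gadd45a arrays only, unlike base 901 on G39A replicate 2, with 43.0 and 43.5 in Gadd45a cells, and signals not well above background of 19.8 and 18.2 in G39A and of 16.8 and 16.2 in Flag cells. The polysialyltransferases had closer matches that likewise part the replicate numbers. St8sia2 was most like Dync1li1 (r = 0.999) and Plekhf2 (r = 0.998), and St8sia4 most like Ahcyl2 and Slc9a2 (r = 0.998 each). St8sia2 and St8sia4 correlated at 0.97 with each other and at 0.02 and 0.01 with the base 901 probe of St8sia6. With the member probes dim on all 6 arrays, base 901 correlated at 0.84 (St8sia1 base 7403) and 0.77 (St8sia5 base 1471). For St8sia3 the values were 0.83 (base 2121), 0.79 (base 2101) and 0.10 (base 5758).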

How the data were processed

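RNA of 6 MEF samples (Gadd45a, G39A and Flag, each added to SKO, 2 arrays each) was measured on Agilent 1-colour arrays. Per the file headers, the deposited spot intensity (processed signal) is background-subtracted, with a substitute value for dim spots, and the submitters' processing notes name Agilent Feature Extraction 10.7. The deposited marks of each spot say whether it is well above background, saturated or an outlier. The deposited value table holds log2 values, with column medians of 6.17 and a correlation of at least 0.9989 with its own array, so its direction is that of the signal. How it was made is otherwise not stated. After outlier spots were left out, log2 signals were centred on the 75th percentile of their array. Each member probe had 1 spot per array.

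Probes that some group had well above background in both replicates entered limma 3.58 (R 4.3, lmFit and eBayes, no covariate), which left 15650 genes, each represented by its brightest probe, and adjusted p-values (Benjamini-Hochberg, all genes) were read at a threshold of 0.05. The model was tested on simulated data. The median SE of a difference was 0.31 without and 0.12 with the replicate block. The number of arrays limits the precision, and p-values reflect the spread between arrays alone, which may be technical. Same-numbered arrays deviated together from the group means (correlations of 0.911 to 0.915 for the 3 pairs of groups), so the numbers were taken to pair the samples.

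The members and gene lists were chosen with earlier results of these data known. Named genes are all members, up to 4 genes of each list with the largest Gadd45a minus Flag difference of the same sign in both replicate numbers, 7 genes always named (St3gal5, B4galnt1, Ugcg, Ncam1, Cmas, Gne, Neu1), and the genes of highest correlation with a member. Fam183b's detection and the list genes of the replicate comparison were named after their values were seen. Alternatives were the replicate block, the slide as a random block, normexp background correction, quantile normalization, the value table, other filters, every probe on its own and leaving out each array. The comparison of replicate numbers and the values within each were added after seeing the data. 1 gene of the breakdown list is not reported here by name.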

Additional observations from a re-analysis of the deposited data

How the results depend on the processing

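The replicate block changed no call, with 0 genes past the threshold in each of the 3 comparisons. With the slide as a random block, 19 genes passed in Gadd45a against Flag (5 higher, 14 lower) and 3 in G39A against Flag (0 higher, 3 lower), against 0 without it, and no St8sia gene was among the 3. The St8sia6 base 901 difference between Gadd45a and Flag (5.10) was 1.69 with normexp background correction, which raises dim signals, 4.86 with quantile normalization and 4.89 in the value table, and 4.77 to 5.43 when each array was left out in turn. At base 901, G39A minus Flag (1.74) was 0.32 with normexp and 2.64 with the slide block, and Gadd45a minus G39A (3.36) was 1.37 and 2.46. At base 4822 Gadd45a minus Flag turned to -0.059 with normexp, -0.072 with quantile normalization, -0.071 in the value table and -0.17 within replicate 1. At base 2721 it was 0.39 within replicate 2, where both values are substitutes. St8sia2 between Gadd45a and G39A turned to 0.029 with normexp.

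Leaving out each array in turn gave 0 calls in all 3 comparisons. It gave differences between Gadd45a and Flag of -0.78 to 1.29 for St8sia2, -0.52 to 0.80 for St8sia4, -2.95 to 2.31 at base 2721 and -1.88 to 2.09 at base 4822 of St8sia6. Between G39A and Flag they were -0.74 to 1.32 for St8sia2, -0.89 to 0.64 for St8sia4 and 0.89 to 2.59 for St8sia6. Between Gadd45a and G39A they were -1.04 to 0.97, -0.49 to 1.03 and 2.51 to 4.21. Without an array the replicate numbers are unbalanced between groups. Signal over background limits 12 of the 14 probes on at least 1 array. With no filter St8sia6 is represented by another probe, and a filter on all 6 arrays leaves base 901 out, so neither gave a value for it.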
